A study of Mus musculus with 27 samples.

Results

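The change in the spleen expression ratio of NOD over NOD.B10 mice between 10 days and 4 weeks of age, from suckling to after weaning, was taken from 10 of the 27 arrays of the series, all 5 arrays of each age. Each array held 2 dyes. The green dye (Cy3) carried spleen RNA of female NOD/LtJ mice, an inbred strain that develops autoimmune diabetes, and the red dye (Cy5) carried spleen RNA of female NOD.B10Sn-H2b/J mice, which share the NOD background but carry a different haplotype at H2, the murine MHC. The NOD mice of the first group were 10 days old (n = 5) and those of the second 4 weeks old (n = 5). The labels name no treatment, and every sample carries a label of diabetes, the 10-day mice included, which was not used. The controls were 10 NOD.B10 mice of 10 days and 10 of 20 weeks. The labels do not say which of these was on the 4-week arrays, whether the controls were pooled, or whether an array held 1 NOD mouse, so a change of the ratio can lie in either strain or in the age of the control. Cy3 held NOD on every array, so any preference of a probe for 1 dye enters the ratios of both ages.

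Only 10-day array 4 was scanned in the campaign of the 4-week arrays, which were scanned 8 days after it on the same scanner. A campaign is a run of scan dates with no gap of over 60 days. The 10-day arrays 1 to 3 were scanned 414 days after array 4 and array 5 was scanned 582 days after it, all 4 on another scanner. The version of the software that read the spots differed likewise. It was 8.1.1.1 for array 4 and the 4-week arrays, 8.5.1.1 for 10-day arrays 1 to 3 and 9.1.3.1 for array 5. In the reference dye, array 4 correlated with the 4-week arrays at r = 0.966 to 0.972 across genes and with the other 10-day arrays at 0.866 to 0.916, while in the ratio it correlated at 0.197 to 0.403 with the former and at 0.169 to 0.317 with the latter (genes are not independent replicates). Age and campaign could therefore be separated only through this array. For each gene its position was computed on a scale where 0 is the mean of the other 4 10-day arrays and 1 the mean of the 4-week arrays. Below 0.333 the array is said to lie with the other 10-day arrays, above 0.667 to side with the 4-week arrays, and otherwise to lie between them. The share of spots well above background on the 10 arrays was 68.4% to 87.3% for NOD and 53.0% to 83.1% for the reference. Xist, the RNA of the inactive X, was measured in both dyes on 10 of 10 arrays, and its ratio did not pass the test (0.28 at 10 days, 0.11 at 4 weeks, limma adjusted p = 0.50). The Y-linked genes Eif2s3y, Kdm5d and Uty were well above background on 9, 7 and 5 of the 10 arrays in the NOD dye. In the reference dye they were so on 4, 6 and 1, and their ratios did not pass either. Why these probes gave signal in samples labelled female was not tested.

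The spleen of a suckling mouse is a site of blood formation as well as an immune organ. In the first weeks of life it holds many granulocyte, red cell and platelet precursors, and B cell follicles with their stromal networks are still being laid down. Granulocyte precursors in the promyelocyte stage make the primary granule proteases, and later stages make the secondary granule proteins and the S100 proteins. Immediate early genes are switched on within minutes by many stimuli, heat shock genes by protein damage, and a further set by glucocorticoid hormones, so all of these can also respond to handling of animals and tissue.

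The ratio changed for 2605 of 25241 genes (10.3%), 1312 higher at 4 weeks (5.2%) and 1293 lower (5.12%), in limma's moderated test at a Benjamini-Hochberg adjusted p under 0.05, to which "rose" and "fell" below refer. Array by array, the ages did not overlap for 10.1% of 25010 genes, with 5.51% higher and 4.63% lower. The change was at least 2-fold for 580 of the 2605 called genes, 412 higher and 168 lower. Array 4 lay with the other 10-day arrays for 1943 of the called genes (74.6%), between the ages for 435 (16.7%) and sided with the 4-week arrays for 226 (8.68%), of which 189 were higher and 37 lower. Over all genes tested these shares were 49.4%, 12.8% and 37.7%. Array 4 lay with the other 10-day arrays for 63.7% of the called higher genes and 85.6% of the called lower ones. In the lists below, too, members were called with array 4 included, so its position among them is no independent support. Since array 4 is 1 of the 5 that made these calls, the calls were also made without it. Of 2396 genes then called, array 4 lay with the other 10-day arrays for 1502 (62.7%) and sided with the 4-week arrays for 425 (17.7%), 329 of them higher and 96 lower. Of the 689 that changed at least 2-fold, array 4 lay with its age for 301 and sided with the 4-week arrays for 252, and among the higher ones siding was the more frequent (213 against 171). With the campaign as a block the contrast is the 4-week mean against array 4 alone, and 1 gene was called (0.00396%). This is Scgb2b26, a secretoglobin gene, named because it is the only one. At an unadjusted p under 0.05 that fit had 1941 genes, against 6179 without the block. With another background correction (normexp, then loess) the change of 29 of the 99 called genes chosen for naming was smaller by over 1.5 times, among them Fos (-1.17), Ch25h (-1.27), Sik1 (-1.16), Elane (1.12), Prss57 (1.04), Per1 (-0.82), Serpina1b (-0.89), Hpn (-0.93) and Cpa3 (0.50).

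**Figure D1:**
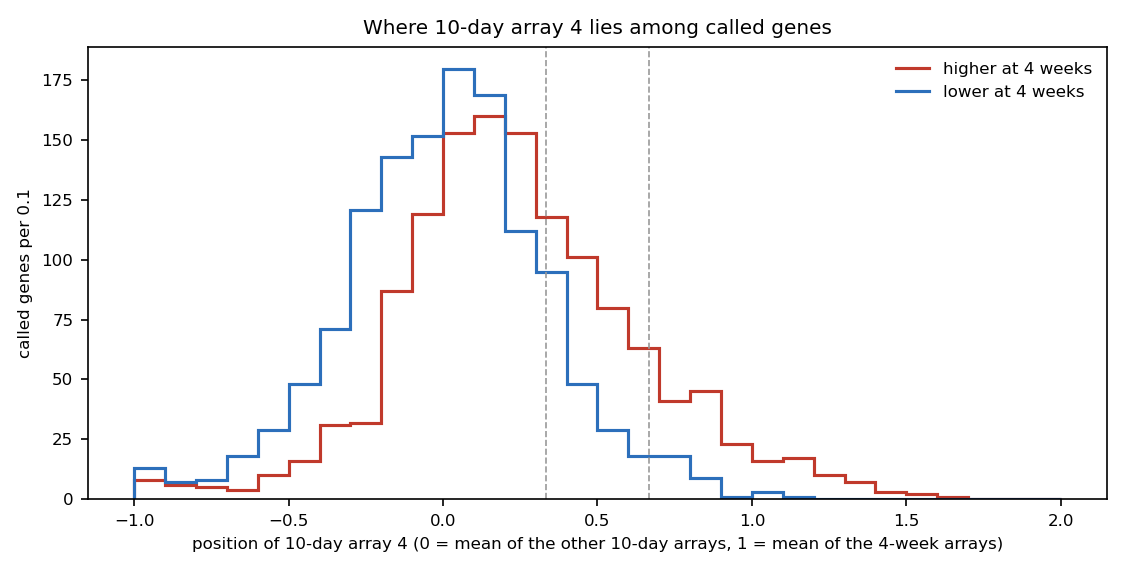
Histogram of the position of 10-day array 4 (horizontal axis, no unit, 0 is the mean of the other 4 10-day arrays and 1 that of the 4-week arrays) for the called genes, counted per bin of 0.1 (vertical axis), with the limits of 0.333 and 0.667 dashed. The median is 0.213 for the 1311 higher genes with a value and 0.0169 for the 1293 lower genes, and 6 and 8 genes below -1 are drawn in the first bin.

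Neutrophil granule genes rose from 10 days to 4 weeks. Of 20 tested genes of a neutrophil list 16 rose and 0 fell, against 5.2% of all genes higher. Array 4 lay with the other 10-day arrays for all 16, against 63.7% of all called higher genes. The ages did not overlap for 15 genes of the list, all higher, against 5.51% of all genes higher without overlap. The list's median change was log2 1.45, against 0.02 over all genes tested, and it was 1.27 within the campaign, that is, for the 4-week mean against array 4. With 1 array left out at a time 15 or 16 of them passed. In bulk tissue, fewer cells of a type and less RNA per cell cannot be told apart.

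Ctsg, which encodes the granule protease cathepsin G, had log2 ratios of -1.13, -1.44, -1.42, -1.37 and -1.49 on 10-day arrays 1 to 5 and of -0.23, 0.65, -0.17, 1.08 and 1.06 on 4-week arrays 1 to 5. All 10-day arrays lay below all 4-week arrays, array 4 among the others of its age. The ratio rose 3.6-fold (log2 1.85 ± 0.24 SE, n = 5 and 5, limma adjusted p = 5.8e-05). Elane, the neutrophil elastase, stood at -1.43, -1.41, -1.36, -1.42 and -1.69 at 10 days and at -0.38, 0.09, 0.32, 0.57 and 0.53 at 4 weeks. It rose 3.23-fold (log2 1.69 ± 0.23, limma adjusted p = 6.4e-05), and array 4 lay with its age. Prtn3 (log2 1.30) and Mpo (1.12), a further protease and the peroxidase of the same primary granules, rose as well. Prss57, another serine protease of these granules, rose by 1.62 ± 0.29. The ratio of each of the 5 was below 0 on every 10-day array.

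Several products of later granulocyte stages rose as well, but the 4-week arrays were ordered differently. Arrays 4 and 5 were the highest for Ctsg and Elane and the lowest for Ngp, Mmp8, Retnlg and Chil4. For S100a8 and Wfdc21 array 4 was the lowest and array 5 was not next to it. Ngp, a secondary granule protein, had ratios of -0.63, -0.82, -0.92, -0.86 and -1.08 at 10 days and of 0.75, 1.35, 0.90, 0.70 and 0.43 at 4 weeks, so that the sign of the strain difference turned on every array. It rose 3.22-fold (log2 1.69 ± 0.18, limma adjusted p = 5.6e-06). S100a8, a subunit of calprotectin, rose by 1.71 ± 0.21, from -0.93 ± 0.29 (SD, n = 5) to 0.78 ± 0.50 (n = 5). Its partner S100a9 was at 0.12 ± 0.21 and did not pass, but that probe was saturated on 6 of the 10 arrays and missing on 10-day array 5. Camp (log2 1.5), the cathelicidin, Lcn2 (1.46), the iron-siderophore binding lipocalin, Ltf (1.23), lactoferrin, and Mmp8 (1.67), neutrophil collagenase, rose too. Retnlg (1.62) and Chil4 (1.55), a resistin-like and a chitinase-like secreted protein, and the whey acidic protein gene Wfdc21 (1.86 ± 0.18, limma adjusted p = 2.7e-06) were among the 12 highest. Array 4 lay with the other 10-day arrays for each of these genes. Il1b (-0.50), Mmp9 (0.20) and Fcnb (0.57) of the list did not pass.

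Ms4a3, a membrane protein of granulocyte precursors, had the largest rise of the 12 highest genes chosen for naming. These have a plain symbol, both dyes measured on all 10 arrays, no overlap between the ages and array 4 on the side of its age. The ratios of Ms4a3 were -1.37, -1.63, -1.64, -1.51 and -1.65 at 10 days and -0.15, 0.66, 0.15, 0.63 and 0.48 at 4 weeks. The 10-day arrays differed by less than 0.3 among themselves, and the ratio rose 3.76-fold (log2 1.91 ± 0.19, limma adjusted p = 2.6e-06). The change did not carry on in 1 direction: its mean was -0.22 on the 8-week arrays, -0.82 on those of 12 weeks, -2.0 on those of 16 and 0.62 on those of 20. Prok2, a chemokine-like peptide of neutrophils, rose by 1.76 ± 0.40 (0.52 with normexp), and Chac1, a glutathione-degrading enzyme induced by stress, rose by 1.82 ± 0.30. For both, array 4 was with its age.

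**Figure D2:**
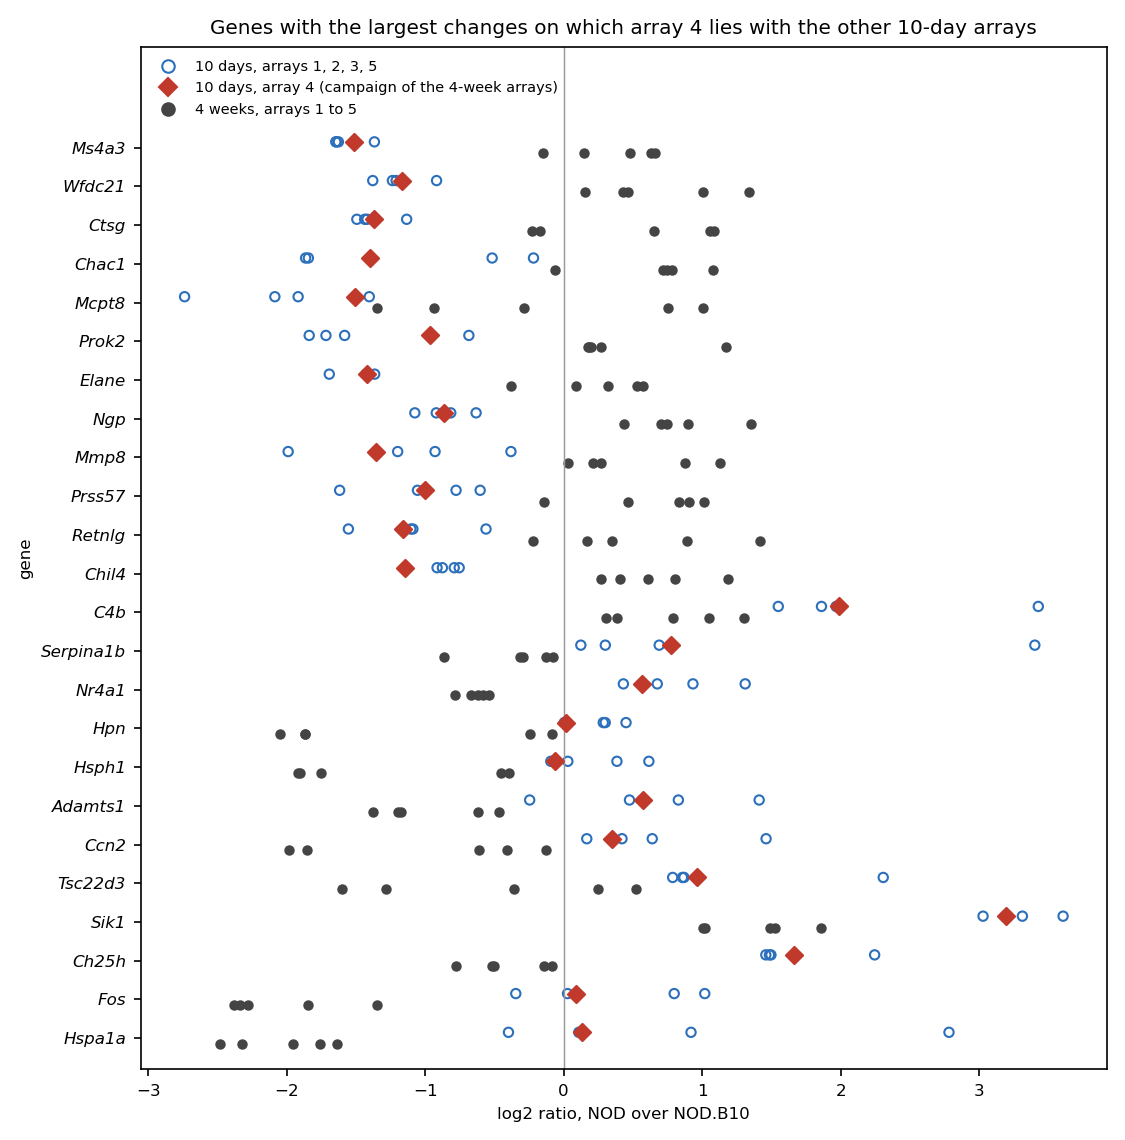
Log2 ratio of NOD over NOD.B10 (horizontal axis) on each of the 10 arrays for the 12 highest and 12 lowest genes (vertical axis) that were called, did not overlap between the ages, had both dyes measured on all 10 arrays and had array 4 with its age. Open circles are 10-day arrays 1, 2, 3 and 5, red diamonds 10-day array 4 and grey points the 4-week arrays, and array 5 stands apart to the right for C4b and Serpina1b.

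The rise of the granulocyte ratios lay mainly in the reference dye. Levels of a single dye are log2 signals minus the array's 75th percentile, compared only between array 4 and the 4-week arrays. The neutrophil list's median difference was -0.99 in the NOD dye and -2.30 in the NOD.B10 dye. For Ctsg the difference was -1.68 in the NOD dye and -3.53 in the NOD.B10 dye, and for Ngp it was -1.08 and -2.77. The levels of Ms4a3 in the NOD.B10 dye were 3.78 on array 4 and 0.58 to 0.84 on the 4-week arrays, and in the NOD dye 2.25 on array 4 and 0.49 to 1.30 on the 4-week arrays. For these 3 genes both strains' signals were lower on the 4-week arrays than on array 4, the reference signal more so. For Mmp8, Retnlg and Chil4 the NOD dye differed by 0.06, 0.40 and 0.08 and the NOD.B10 dye by -1.80, -1.28 and -1.72. These differences rest on 1 array at 10 days and have no test of their own.

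Basophil, mast cell and eosinophil genes changed in part. Of 19 tested genes 5 rose, against 5.2% of all genes, and 0 fell, and array 4 lay with its age for 4 of the 5. Mcpt8, the basophil granule protease, stood at -1.92, -1.40, -2.09, -1.51 and -2.74 at 10 days and at -0.29, -0.94, -1.35, 1.01 and 0.75 at 4 weeks. The ages did not overlap, although 4-week array 3 came close to the highest 10-day array, and the ratio rose 3.41-fold (log2 1.77 ± 0.44, limma adjusted p = 0.011). Cpa3, the carboxypeptidase of mast cells and basophils, rose by 1.15 ± 0.27 and Prss34, a basophil protease, by 1.1. The ratios of the eosinophil genes Ear1 (1.39) and Prg2 (1.38), a ribonuclease and the major basic protein, rose too. Array 4 lay with its age for Ear1 and between the ages for Prg2. Within the campaign the NOD dye differed by -3.21, -3.14 and -0.72 for Ear1, Prg2 and Mcpt8 and the NOD.B10 dye by -4.21, -4.04 and -2.07. The 4-week means of these 3 genes were thus below array 4 in both dyes. For Mcpt8, however, the NOD dye ranged from -3.535 to -1.109 on the 4-week arrays, around the -1.565 of array 4. The list's median differences were 0.09 and -0.26. Kit, Gata2 and Fcer1a, a growth factor receptor, a transcription factor and an IgE receptor chain of these cells, were at -0.12, 0.14 and 0.15 and did not pass. The list's median was 0.60, and 0.36 without 10-day array 5.

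Platelet genes rose by less. Of 15 tested genes 7 rose, against 5.2% of all genes, and 0 fell, with a median of 0.54 and of 0.31 within the campaign. Clec1b, the platelet podoplanin receptor, had ratios of -0.49, -0.48, -0.94, -0.36 and -0.23 at 10 days and of 0.64, 1.06, 1.08, 0.20 and 0.27 at 4 weeks. The ages did not overlap, with array 4 among its age, and the ratio rose 2.22-fold (log2 1.15 ± 0.17, limma adjusted p = 0.00015). Treml1 (1.01), Ppbp (0.96) and Pf4 (0.77), a granule receptor and the platelet chemokines, rose and had array 4 with their age. Itga2b, the platelet integrin chain CD41, rose by 1.48 ± 0.24, but array 4, at 0.94, lay between the other 10-day arrays (-0.12 to 0.39) and the 4-week mean of 1.71.

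Genes of B cell precursors showed no common direction. Of 15 tested genes 2 rose and 1 fell, against 5.2% and 5.12% of all genes, with a median of 0.24. Dntt, the terminal transferase that adds bases at antigen receptor joints, rose by 1.01 ± 0.21, and Erg, a transcription factor, by 0.79 ± 0.12. The surrogate light chain genes Vpreb1 (0.69) and Igll1 (-0.40) and Rag1 (0.30) did not pass. For Dntt and Erg array 4 was with its age. Bcl7a, at -0.32, fell, but was lost when any of 7 arrays was left out.

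Mature B cell genes moved the other way. Of 20 tested genes 9 fell and 0 rose, against 5.12% of all genes lower. Array 4 lay with the other 10-day arrays for all 9, against 85.6% of all called lower genes. When it was left out, 9 genes of the list fell. The median was -0.31, and -0.47 within the campaign. Cxcr5, the chemokine receptor that guides B cells into follicles, had ratios of 0.72, 1.03, 0.85, 0.88 and 1.46 at 10 days and of 0.42, -0.14, -0.19, -0.30 and -0.23 at 4 weeks. All 10-day arrays lay above all 4-week arrays, and the ratio fell 2.11-fold (log2 -1.08 ± 0.13, limma adjusted p = 2.5e-05). Tnfrsf13c, which binds the survival signal BAFF on B cells, stood at 0.96, 1.41, 1.19, 1.26 and 1.43 at 10 days and at 0.50, 0.19, 0.57, -0.02 and -0.03 at 4 weeks. It fell 2.02-fold (log2 -1.01 ± 0.17, limma adjusted p = 0.00054), with no overlap. Fcmr (-1.13), the IgM receptor, Fcer2a (-0.95), the IgE receptor CD23, and Spib (-0.89), a transcription factor, fell as well. Cd22 (-0.97) fell by its brightest probe while its other probe was at 0.44. The antigen receptor chains Cd79a (-0.26) and Cd79b (-0.23) and Ms4a1 (-0.24), which encodes CD20, did not pass. Within the campaign the list's median difference was 0.08 in the NOD dye and 0.56 in the NOD.B10 dye.

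In limma 0 of 20 T cell genes and 0 of 20 interferon-response genes were called, with 5 and 3 at an unadjusted p under 0.05. The T cell medians were 0.13 to 0.95 at 10 days and 0.81, 0.47, 0.73, -0.25 and -0.24 on 4-week arrays 1 to 5. The 4-week arrays 4 and 5 thus lay apart from arrays 1 to 3 for this list.

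Genes of immediate early, heat shock and glucocorticoid responses supplied 6 of the 12 lowest named genes. Of all genes 5.12% fell. Of 27 tested immediate early genes 15 fell and 0 rose, with a median of -0.67, and -0.48 within the campaign. Array 4 lay with its age for 12 of the 15 and between the ages for the other 3, Zfp36, Atf3 and Ier2. Of 14 heat shock genes 7 fell and 0 rose (median -0.53, and -0.57 within the campaign), with array 4 with its age for 6. Of 13 glucocorticoid response genes 7 fell and 0 rose (median -0.71, and -0.68 within the campaign), all 7 with array 4 with its age. Over all called lower genes, array 4 lay with its age for 85.6%. Called without array 4, 13, 7 and 4 genes of the 3 lists fell. Dusp1, a phosphatase, stands in the first and the last of these lists.

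The sequences before the start sites of 4 called genes of these lists are shown because they hold the motif read by the pathway's known factor. Capitals mark GAANNTTC, the inner part of the heat shock element, or TGACGT, the core of the cyclic AMP response element, searched on both strands, where overlapping matches run together. The 250 bases before the start were taken 5′ to 3′ on the gene's strand from RefSeq with build GRCm38.p6. They are chr17:34972157-34972406 on the minus strand for Hspa1a, chr5:135887669-135887918 on the plus strand for Hspb1, chr12:85473640-85473889 on the plus strand for Fos and chr17:26508473-26508722 on the minus strand for Dusp1.
Hspa1a: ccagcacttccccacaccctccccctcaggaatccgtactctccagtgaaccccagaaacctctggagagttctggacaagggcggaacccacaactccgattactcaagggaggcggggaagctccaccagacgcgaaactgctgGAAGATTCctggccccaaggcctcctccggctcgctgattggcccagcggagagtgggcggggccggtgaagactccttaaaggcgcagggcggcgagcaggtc
Hspb1: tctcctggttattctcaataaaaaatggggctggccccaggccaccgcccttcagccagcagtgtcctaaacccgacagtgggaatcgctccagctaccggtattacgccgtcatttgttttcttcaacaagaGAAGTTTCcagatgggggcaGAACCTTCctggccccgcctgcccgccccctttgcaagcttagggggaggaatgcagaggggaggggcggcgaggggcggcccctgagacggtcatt
Fos: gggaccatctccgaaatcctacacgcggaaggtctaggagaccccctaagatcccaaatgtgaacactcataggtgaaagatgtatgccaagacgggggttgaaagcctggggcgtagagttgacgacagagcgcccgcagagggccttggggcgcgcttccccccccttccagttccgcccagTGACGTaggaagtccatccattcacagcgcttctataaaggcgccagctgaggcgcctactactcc
Dusp1: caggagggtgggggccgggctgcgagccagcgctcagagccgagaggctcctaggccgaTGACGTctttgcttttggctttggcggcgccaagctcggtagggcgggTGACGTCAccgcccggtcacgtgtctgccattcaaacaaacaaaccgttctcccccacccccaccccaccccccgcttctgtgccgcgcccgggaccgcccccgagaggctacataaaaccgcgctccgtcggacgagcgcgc
GAANNTTC was found in 6.69% of 32851 promoters of this length, in 6 of the 10 heat shock genes that have one and in 3 of the 6 called ones, Hspa1a, Hspb1 and Dnaja1. TGACGT was found in 6.47% of all promoters, in 7 of 22 immediate early genes and in 6 of the 10 called ones, Fos, Dusp1, Atf3, Btg2, Egr2 and Tnfaip3. A gene was counted if any of its promoters held the motif, and some have several, whereas the shares of all promoters are per promoter, so the rates are not like for like. A match is a description of the letters and not a site.

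Fos, a subunit of the transcription factor AP-1, had ratios of 1.02, 0.03, -0.35, 0.09 and 0.80 on 10-day arrays 1 to 5 and of -2.38, -2.34, -1.34, -2.28 and -1.85 at 4 weeks. The lowest 10-day array lay almost 1 log2 unit above the highest 4-week array, and array 4 lay with its age. The ratio fell 5.12-fold (log2 -2.36 ± 0.30, n = 5 and 5, limma adjusted p = 3.1e-05). Later means were -1.06 on the 8-week arrays, 0.65 on those of 12 weeks, 0.10 on those of 16 and -0.44 on those of 20. In the single dyes, the 4-week mean was 0.77 below array 4 in the NOD dye (difference -0.77) and 1.36 above it in the NOD.B10 dye.

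Sik1, a salt-inducible kinase, stood above 3 on every 10-day array (3.31, 3.03, 3.19, 3.20 and 3.61) and at 1.52, 1.49, 1.86, 1.02 and 1.0 at 4 weeks. NOD was thus above the control at both ages, and the ratio fell 3.7-fold (log2 -1.89 ± 0.30, limma adjusted p = 0.00032), with array 4 with its age. Nr4a1, an orphan nuclear receptor, went from 0.78 ± 0.35 (SD, n = 5) to -0.64 ± 0.09 (n = 5), a fall by 1.42 ± 0.28 (limma adjusted p = 0.0023). Egr1 (-0.90), a zinc finger factor, Myc (-0.87) and Jun (-0.67), the partner of Fos, fell by less. Egr3 fell by 1.24 with its brightest probe, but by 0.64 with an adjusted p = 0.24 when its probes were averaged. Junb (-0.56), Fosb (-0.26) and Klf4 (-0.05) did not pass.

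Ch25h is cholesterol 25-hydroxylase, whose product restrains sterol synthesis. Its ratios were 1.49, 1.5, 1.46, 1.66 and 2.25 at 10 days and -0.52, -0.50, -0.08, -0.78 and -0.14 at 4 weeks. Array 4 was with its age, and the ratio fell 4.21-fold (log2 -2.08 ± 0.23, limma adjusted p = 9.9e-06), from above the control to below it.

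Hspa1a, the inducible HSP70, had the largest fall of the named genes with all arrays, but not without 10-day array 5, when Fos (-2.24) fell by more. Its ratios spread from -0.40 to 2.78 at 10 days (-0.40, 0.11, 0.92, 0.13 and 2.78) and from -2.48 to -1.64 at 4 weeks (-2.33, -2.48, -1.64, -1.96 and -1.76). The highest value was that of 10-day array 5, without which the change was -2.22 (limma adjusted p = 0.0012), against -2.74 ± 0.47 with it (6.69-fold, limma adjusted p = 0.00059). Its 3 probes ranged from -3.22 to -0.97, and RNA of the near-identical Hspa1b, whose own probe was at 0.28 and not called, could bind them too. Hsph1, an HSP110 chaperone, stood at -0.09, 0.03, 0.62, -0.06 and 0.38 at 10 days and at -1.76, -1.90, -1.92, -0.45 and -0.40 at 4 weeks. It fell 2.75-fold (log2 -1.46 ± 0.28, limma adjusted p = 0.0016), with 4-week arrays 4 and 5 nearer to the 10-day arrays than arrays 1 to 3. Dnajb1 (-0.92), the HSP40 cochaperone, Hspa8 (-0.75), the constitutive HSC70, and Dnaja1 (-0.74) fell with array 4 with their age. Hspb1 (-0.86), HSP27, had array 4 between the ages, and its change was -0.26 with an adjusted p = 0.56 when its probes were averaged. Hsp90aa1 (-0.26), Hsp90ab1 (-0.28) and the endoplasmic chaperone Hspa5 (-0.09) did not pass.

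Among the glucocorticoid response genes, Tsc22d3, which encodes the leucine zipper GILZ, had ratios of 0.87, 0.86, 0.79, 0.97 and 2.31 at 10 days and of 0.25, -0.36, 0.52, -1.60 and -1.28 at 4 weeks. It fell 3.14-fold (log2 -1.65 ± 0.37, limma adjusted p = 0.0054). Here 4-week arrays 4 and 5 lay farthest from the 10-day arrays, the reverse of Hsph1. Per1 (-1.30), a clock gene, fell too. Fkbp5 (-1.77 ± 0.54, limma adjusted p = 0.036), a chaperone of the glucocorticoid receptor, and Errfi1 (-1.87 ± 0.58, limma adjusted p = 0.041), an inhibitor of growth factor receptors, fell as well, but 8 and 7 of the 10 fits without 1 array lost these calls, and 1 of the other probes of Fkbp5 was at 0.06. The count of 7 was 2 without 10-day array 5, 3 without 4-week array 4 or 5, and 4 without 10-day array 2 or 4 or 4-week array 2. The metallothioneins Mt1 (0.01) and Mt2 (-0.20) did not pass. For Tsc22d3, Fkbp5 and Errfi1 the reference dye was 2.15, 2.06 and 1.81 higher on the 4-week arrays than on array 4, and the NOD dye 0.69, 0.17 and 0.08 higher.

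Smooth muscle genes fell in part. Of 14 tested genes 6 fell, against 5.12% of all genes, and 0 rose (median -0.50, and -0.60 within the campaign). Array 4 lay with its age for all 6, against 85.6% of all called lower genes. Tagln, transgelin, had ratios of 0.56, 0.95, 0.98, 0.77 and 1.04 at 10 days and of -0.21, -0.33, -0.75, -0.08 and 0.08 at 4 weeks. The ages did not overlap, and the ratio fell 2.17-fold (log2 -1.12 ± 0.19, limma adjusted p = 0.00062). Acta2, smooth muscle actin, stood at 0.18 to 0.66 at 10 days and at -1.55, -1.59, -1.81, 0.06 and 0.06 at 4 weeks. It fell by 1.38 ± 0.29 with its brightest probe and by 0.44, with an adjusted p = 0.15, over the mean of its 5 probes. Cnn1 (-1.34), calponin, and Des (-0.70), desmin, fell, and Cnn1 had the same gap between 4-week arrays 1 to 3 and arrays 4 and 5. The count of 6 was 2 without 4-week array 3. Here the NOD dye was the lower one: its list median difference within the campaign was -0.64, against 0.14 in the NOD.B10 dye. The stroma list had 4 genes lower and 1 higher of 22, against 5.12% and 5.2% of all genes, among them Ccl19 (-0.76 ± 0.13), a chemokine of the T cell zone, and Col4a2 (-0.61), a basement membrane collagen.

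Ccn2, a matrix-associated growth factor, fell by 1.61 ± 0.32 (limma adjusted p = 0.0024). It stood at 0.17 to 1.46 at 10 days and at -0.61, -0.41, -0.13, -1.99 and -1.85 at 4 weeks, so 4-week arrays 4 and 5 were the lowest. Adamts1, a matrix protease, fell by 1.58 by its brightest probe, while its other probe was at 0.07. Hpn, a membrane protease, fell by 1.43 with a second probe at -0.07, and 4-week arrays 1 to 3 were near -2 while arrays 4 and 5 were at -0.09 and -0.24. Array 4 of the 10-day group lay with its age for these 3 genes.

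For S phase, G2 and M phase and erythroid genes, 4-week arrays 1 to 3 were lower than arrays 4 and 5. Of 26 S phase genes 1 rose and 1 fell (limma), against 5.2% and 5.12% of all genes. The list's median ratios were -0.99, -0.86, -0.99, 0.09 and -0.02 on 4-week arrays 1 to 5 and -0.54 to 0.13 at 10 days. Cdt1, a DNA replication licensing factor, fell by 0.81 ± 0.13, and Mcm2 (-0.76, adjusted p = 0.067) and Rrm2 (-0.86, adjusted p = 0.050) did not pass in limma. Without 4-week array 4 or 5, respectively 5 and 4 genes of the list were called in place of 2. Of 29 erythroid genes 1 fell, Car1 (-1.20), a carbonic anhydrase, against 5.12% of all genes. The erythroid medians were -0.55, -0.60, -0.69, 0.06 and 0.19 on the 4-week arrays. On 10-day array 5 the median was -0.61, against -0.12 to 0.19 on the other 10-day arrays. Of 30 genes of G2 and M phase 0 were called in limma, 0 also at an unadjusted p under 0.05, with medians of -0.68, -0.61, -0.74, 0.05 and 0.10 on the 4-week arrays and -0.79 to -0.12 at 10 days.

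**Figure D3:**
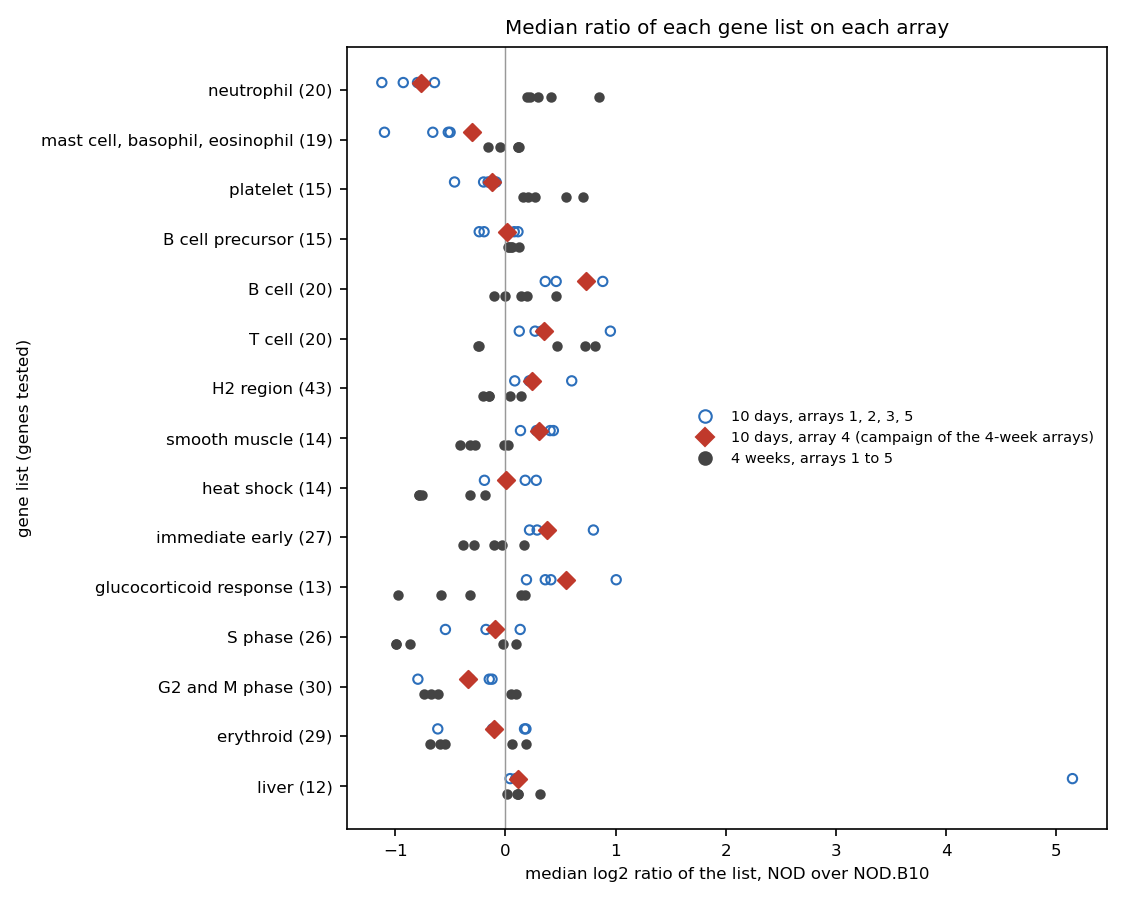
Median log2 ratio (horizontal axis) of 15 gene lists (vertical axis, with the number of genes tested) on each of the 10 arrays, drawn as in the plot of single genes. The neutrophil medians are -1.12 to -0.64 at 10 days and 0.20 to 0.85 at 4 weeks with array 4 at -0.76, and the liver median of 10-day array 5 is 5.15.

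The H2 region differs in haplotype between the strains, so a probe can read its alleles unequally. Of 43 tested genes of that region 14 fell, against 5.12% of all genes, and 0 rose (median -0.33, and -0.38 within the campaign). C4b, a complement component, stood above 1.5 on every 10-day array (1.97, 1.55, 1.86, 1.99 and 3.43) and at 1.31, 1.05, 0.79, 0.31 and 0.38 at 4 weeks. It fell 2.62-fold (log2 -1.39 ± 0.24, limma adjusted p = 0.0006), with array 4 with its age, and by 1.08 without 10-day array 5. Cfb (-0.86), complement factor B, and Tnxb (-0.88), tenascin X, fell likewise, and Hspa1a lies in this region too. The class II genes H2-Eb1 (-0.78) and H2-Aa (-0.71) fell, with array 4 with its age for H2-Eb1 and siding with the 4-week arrays for H2-Aa. H2-Ab1 (-0.63) did not pass. Of the 14, array 4 sided with the 4-week arrays for H2-Q2, H2-Aa and H2-Ob. The count of 14 was 7 (with 1 higher) without 10-day array 5, 7 without 4-week array 3, and 9 without 10-day array 2 or 4-week array 4.

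Serpina1b, an alpha-1 antitrypsin made by liver, is one of the 12 lowest genes. Its ratios were 0.12, 0.30, 0.69, 0.78 and 3.40 at 10 days and -0.07, -0.32, -0.87, -0.13 and -0.29 at 4 weeks, so 10-day array 5 lay far above the rest. The fall was 1.40 ± 0.37 (limma adjusted p = 0.017), -0.81 without array 5 (adjusted p = 0.0024), and it missed the threshold without 4-week array 3. All 12 tested liver markers were highest on 10-day array 5 among the 10 arrays, at 1.15 to 8.09, with Fgg, Ambp, Ahsg and Alb at 8.09, 7.68, 6.70 and 5.25. The list's median was 5.15 on that array and 0.02 to 0.31 on the other 9, and 0 of 12 were called in limma, with 2 at an unadjusted p under 0.05. The part of this liver signal in the other changes on array 5 was not tested. Without array 5 the 12 highest and 12 lowest named genes were all called, but of all 99 called genes chosen for naming 80 were, and Fkbp5, Errfi1, Per1 and Bcl7a were not. Exocrine pancreas markers had medians of -2.65 to 4.66 at 10 days and of -3.26 to 3.22 at 4 weeks, with 0 of 23 called in limma and 0 at an unadjusted p under 0.05.

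**Figure D4:**
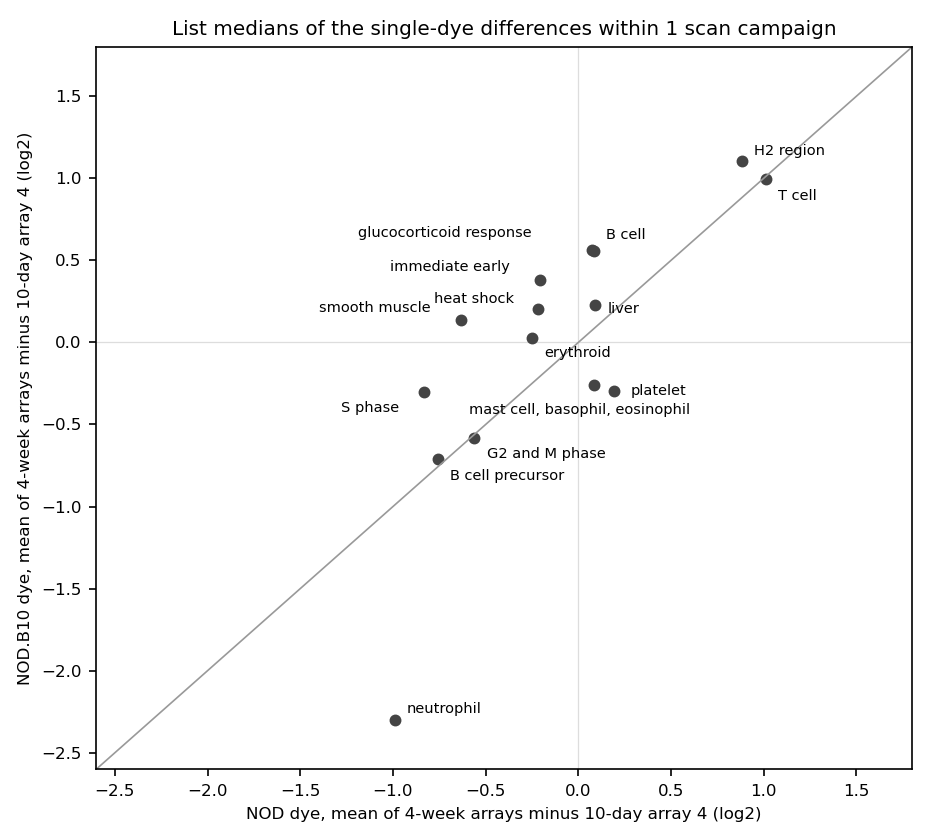
Median over each gene list of the difference between the mean of the 4-week arrays and 10-day array 4, all of 1 scan campaign, in the NOD dye (horizontal axis, log2) and the NOD.B10 dye (vertical axis, log2). Points on the line have no change of the ratio, the neutrophil list lies at -0.99 and -2.30, and the smooth muscle list at -0.64 and 0.14, while the glucocorticoid response and B cell points nearly coincide (0.07 and 0.56, 0.08 and 0.56).

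Among called genes with no overlap and both dyes measured, array 4 sided with the 4-week arrays for 13, 6 higher and 7 lower, of which 8 are named here. Gtsf1, a germ cell protein of small RNA pathways, had ratios of -0.87, -1.04, -1.38 and -1.03 on 10-day arrays 1, 2, 3 and 5, of -0.29 on array 4 and of -0.07 to 0.23 at 4 weeks. Array 4 was nearer to the 4-week arrays than to its own age. Ccdc59 (0.86 ± 0.14), a ribosome assembly factor, Ppp1r11 (0.69), a phosphatase inhibitor, and Mios (0.28), a subunit of the GATOR2 complex, were higher in the same way. Foxj2 (-0.57), a forkhead factor, Csf1 (-0.49), the macrophage growth factor, Sgta (-0.37), a cochaperone, and Tat, the liver enzyme tyrosine aminotransferase, were lower. The other probe of Sgta was at 0.25. Leaving out 1 array ended the call in 9 of 10 fits for Gtsf1, Mios and Tat, in 6 for Sgta and in 3 for Csf1, and with normexp Gtsf1 was at 0.35. For Tat the highest array was again 10-day array 5, at 2.25, and the change of -0.93 was -0.58 (limma adjusted p = 0.14) without it. Within the campaign the changes of the 8 were 0.39, 0.23, 0.10, 0.10, -0.17, -0.09, -0.13 and -0.23 in the order named.

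Several of the largest changes belonged to genes of this kind. At a gap of 2.5 or more between the 4-week mean and the other 10-day arrays (set with the values in view), array 4 sided with the 4-week arrays for 25 genes. Of these, 24 were higher, 23 were called and 5 had both dyes measured on the 10 arrays. Fa2h, a fatty acid hydroxylase, stood at -0.29, 0.04, -0.29 and -0.61 on 10-day arrays 1, 2, 3 and 5, at 7.61 on array 4 and at 6.98, 7.37, 6.96, 6.90 and 6.51 on the 4-week arrays. On the 17 arrays of later ages it lay between -2.14 and 0.28, so only the 6 arrays of 1 campaign were high. The fit gave a change of 5.65 ± 1.01 (limma adjusted p = 0.0009), although the NOD dye was well above background on 9 and the reference dye on 7 of the 10 arrays, so its size is uncertain. Nlrx1, an NLR protein of mitochondria, stood at 6.88 on array 4, at 4.66 to 6.25 at 4 weeks and at -0.27 to 0.76 at later ages, and its other 2 probes had 4-week means near 0 (-0.04 each). Insc (not measured in both dyes on all 10 arrays), Slitrk6, Lama4 and Oosp1 were likewise high on array 4 and the 4-week arrays by their brightest probes. Other probes had 4-week means of -0.54 for Insc, -0.78 to 0.43 for Lama4 and 0.14 for Oosp1, and Slitrk6 had no other probe. Age and campaign cannot be told apart beyond array 4.

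**Figure D5:**
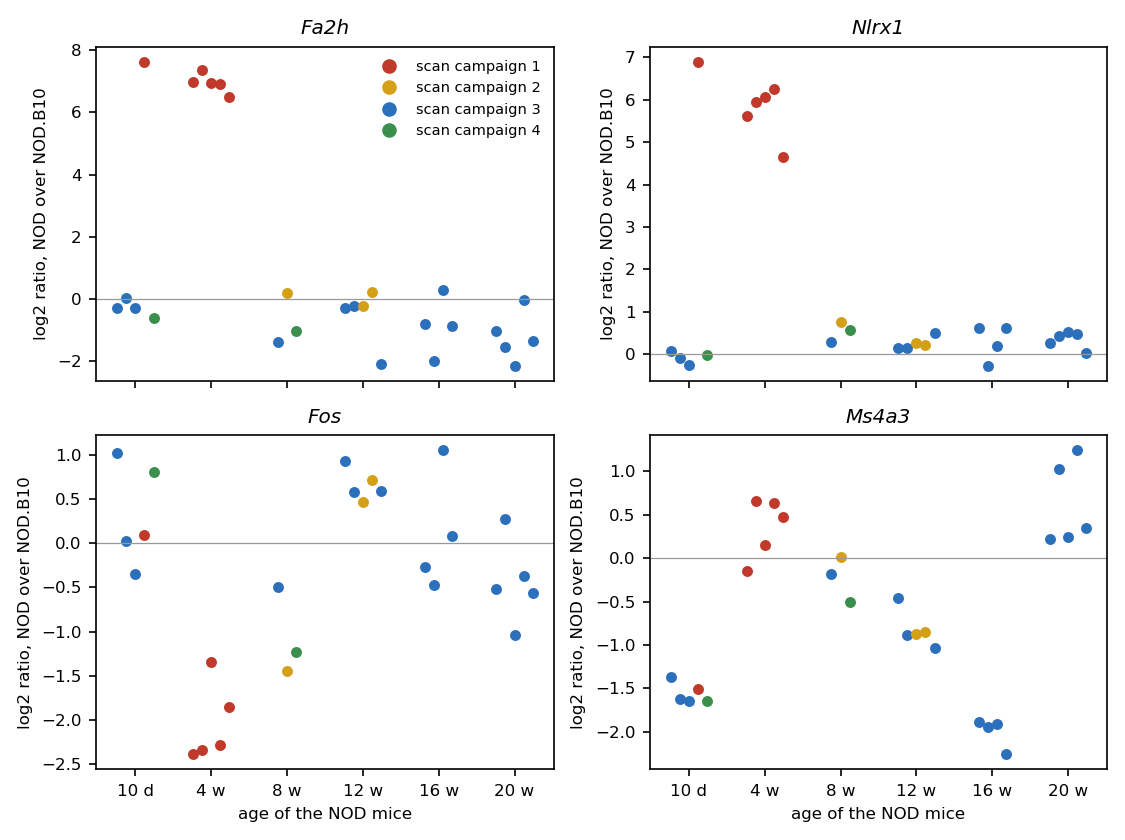
Log2 ratio of NOD over NOD.B10 (vertical axis) by age of the NOD mice (horizontal axis) on all 27 arrays for 4 genes, coloured by scan campaign. The 6 arrays of campaign 1 are the high ones for Fa2h and Nlrx1, whereas for Fos and Ms4a3 the 10-day array of that campaign lies with its age.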

How the data were processed

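Per the labels, spleen RNA (Qiagen RNeasy, Agilent low-input linear amplification) was hybridised as NOD (Cy3) against NOD.B10 (Cy5). The deposited scanner files hold spot intensities, read with Agilent Feature Extraction 8.5 per the submitters' processing notes and 8.1.1.1, 8.5.1.1 or 9.1.3.1 per the file headers, background-corrected and dye-normalised within each array. Deposited marks of 0 or 1 (other unit) give outlier, saturated and well-above-background spots. The deposited value table, on a log10 scale per the labels, equalled minus the scanner files' log10 ratio within 5e-05.

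From these, log2(green/red processed signal) was computed, outlier spots were removed, and a probe was kept if well above background in a dye on all arrays of an age (36012 of 41174). The brightest probe stood for a gene (25241 genes, 18201 with a symbol, matched to RefSeq names of GRCm38.p6 for 31719 probes). limma 3.58.1 in R 4.3.3 fitted 1 mean per age over the 27 arrays. The fit was tested on simulated data that held no campaign effect, so that test cannot show how the fit behaves where age and campaign coincide. Of the called genes 54 had an array missing in the fit. Arrays are not said to be separate mice, so p-values measure the spread between arrays, and their number limits the precision.

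Named were, among called genes with a plain symbol, both dyes measured on 10 arrays and no overlap, the 12 highest and 12 lowest with array 4 on the side of its age, up to 5 each way where it sided with the 4-week arrays (4 higher, 5 lower), and up to 4 called genes per list with the largest change, with Xist and Y-linked genes as checks. Others in a list are given as further members, and a few genes the rule chose are not reported here. The comparison, the members and the lists were chosen with earlier results of these data known. Alternatives were a campaign block, other normalizations and filters, a replicate block and leaving out each array.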

Additional observations from a re-analysis of the deposited data

Results flagged for a closer look

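Of 96 sets of 5 arrays examined (the named genes and list medians, each at 10 days and at 4 weeks), 9 had an end array whose gap to the next exceeded 0.71 of the whole range; chance gives about 1 in 20. In 8 of them it was 10-day array 5: the log2 ratio was 3.43 for C4b, 3.40 for Serpina1b, 2.31 for Tsc22d3, 2.25 for Ch25h, 2.25 for Tat and -1.69 for Elane, and the list median was 0.80 for the immediate early genes and 5.15 for the liver genes. The ninth was 4-week array 2 for Prok2, at 1.17. Without 10-day array 5 the changes of C4b (-1.08), Serpina1b (-0.81), Tsc22d3 (-1.37) and Ch25h (-1.93) were still called, and that of Tat was not (limma adjusted p = 0.14).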

How the results depend on the processing

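The number of arrays limits what can be called. The 2605 calls became 1 with a campaign block, 455 with a replicate block over the 10 arrays, and 1540 (635 higher and 905 lower, 1320 shared) with a block for the array's grid file, chosen after seeing the data. Leaving out 1 array gave 1847 to 2555 calls. No replicate pairing was evident. With each gene's mean at its age taken off, same-numbered arrays correlated at -0.203 to 0.00895, and no array correlated best with its own number. The replicate block kept 17 of the 24 named genes with array 4 on the side of its age. The campaign block kept 0 of these 24, the grid file block 24, the mean of probes 23 and the 10 arrays alone 23. Normexp with loess, array centring, no filter, both dyes measured and the value table kept all 24. Both dyes measured was a condition for choosing the 24, and the value table holds nearly the same ratios, so these settings could hardly drop a gene. Of all 99 called genes chosen for naming, 0 kept the call with the campaign block, 32 with the replicate block, 70 with the 10 arrays alone, 73 with the grid file block, 77 with the mean of probes and 97 with normexp, and 80 to 89 did so without 1 array. Of the 9 genes that the naming rule chose because array 4 sided with the 4-week arrays on them, 0 kept the call with the campaign block, 1 with the grid file block and 4 with the 10 arrays alone. No named gene reversed under any alternative. The single dyes gave 12538 NOD and 15718 NOD.B10 calls, and 237 and 4103 with a campaign block (10370 to 14296 and 14177 to 17224 without 1 array). The share of called genes with array 4 with its age moved from 74.6% to 76.5% with normexp, 71.1% with the mean of probes, 79.1% with both dyes measured, 85.1% with a single limit at 0.5 and 62.7% when called without array 4. Of the list medians, the neutrophil one was 1.16 with normexp, the mast cell, basophil and eosinophil one 0.22 with normexp and 0.93 with both dyes measured (0.36 to 0.82 without 1 array), the platelet one 0.31 and the B cell precursor one 0.12 with the campaign block (the latter 0.11 to 0.27 without 1 array). The cause of these moves was not tested. The direction of the 13 list medians examined, except that of G2 and M phase (0.01), was kept throughout.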

Other observations

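Sterol synthesis genes were called in both directions. Fdps, farnesyl diphosphate synthase, rose by log2 1.01 ± 0.15 (n = 5 and 5, limma adjusted p = 0.00014), from -0.64 ± 0.24 (SD) at 10 days to 0.37 ± 0.36 at 4 weeks, although its probes ranged from 0.00 to 1.01. In all 2 of 17 genes rose and 2 fell, against 5.2% and 5.12% of all genes, with array 4 with its age for all 4.

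Monocyte genes had 2 of 11 higher and 1 lower, against 5.2% and 5.12% of all genes. Ccr2, the receptor that lets inflammatory monocytes leave the marrow, stood at -0.89, -0.65, -0.82, -0.61 and -0.63 at 10 days and at 0.91, 0.10, 1.19, 0.20 and 0.35 at 4 weeks, and rose 2.41-fold (log2 1.27 ± 0.16, limma adjusted p = 3.4e-05). Ms4a6c rose by 0.71 ± 0.13. Cd207, langerin of dendritic cells, fell by 1.15 ± 0.20. Dct, the melanocyte enzyme dopachrome tautomerase, rose by 3.33 ± 0.60, from -4.36 ± 0.87 to -1.02 ± 0.86. Its size is uncertain: the NOD dye was well above background on only 5 of the 10 arrays, the other probe was at 1.11, and the change was 2.22 with the mean of probes and 2.21 with normexp. Array 4 lay with its age for Ccr2, Ms4a6c, Cd207, Cd209a and Dct. Of 20 ribosomal protein genes 1 rose and 4 fell, against 5.2% and 5.12% of all genes. All 4 that fell were saturated on 5 to 10 of the 10 arrays, so no size is given. Endothelial Eng fell by 0.54 ± 0.10, again with array 4 with its age. It was the only called gene of 15 in its list, against 5.12% of all genes lower.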
